A study of Homo sapiens with 8 samples.

Results

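The sestrins SESN1, SESN2 and SESN3 and 5 further genes that tie p53 to metabolism, namely DDIT4, PRKAB1, TIGAR, GLS2 and SCO2, were followed in MCF10A cells, a non-tumorigenic human mammary epithelial line. These 8 genes were found by the transcript accession, symbol or alias of their probes among 20296 genes matched on the arrays, and each was read by 1 probe. In cells, sestrins are stress-induced proteins that hold back the growth kinase complex mTORC1, both through AMP-activated kinase (AMPK) and through the amino acid sensing complexes GATOR1 and GATOR2. DDIT4 (also REDD1) restrains mTORC1 through the TSC complex, and PRKAB1 is a regulatory beta subunit of AMPK. TIGAR is a phosphatase that lowers the glycolytic activator fructose-2,6-bisphosphate, GLS2 is the liver-type glutaminase of mitochondria, and SCO2 is a copper chaperone needed to assemble cytochrome c oxidase. All but SESN3, which is better known as a FOXO target, have been described as genes that p53 can switch on.

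RNA of p53+/+ cells and of p53-/- cells was measured at 0, 12, 24 and 48 h on 8 single-colour Agilent arrays, 1 array for each genotype and time. The arrays of 0 h hold cells without drug, and the other 6 hold cells exposed to adriamycin (ADR, doxorubicin), which damages DNA, for 2 h and harvested at the stated time. The labels give a dose of 0.5 µg/ml and the study's methods a higher one. How the p53-/- line was derived, and whether it is 1 clone, is not given in the sources used here. With 1 array in a group no value has a replicate error, and in what follows the 3 treated times of a genotype stand in for replicates in the linear models fitted with limma, whose p-values therefore set a difference against movement over time. Levels are log2 processed signal (background-corrected spot brightness) relative to the 75th percentile of the array, and they compare 1 probe between arrays, never 1 gene with another. In such bulk RNA, a change in the number of cells of a type and a change in RNA per cell cannot be told apart.

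The array labelled p53+/+ 0 h was set beside the others before the members were read. CDKN1A, the p53-induced inhibitor of cyclin-dependent kinases, had a level of -1.14 where the label was p53+/+ 0 h and of 2.54, 2.63 and 2.70 in treated p53+/+ cells, against -2.97, -0.96, -0.64 and -0.48 in p53-/- cells. In the fibroblast markers given next, this array lay beside the p53-/- arrays and apart from the treated p53+/+ arrays. It is the only untreated array of its genotype, so a difference due to treatment and one due to the sample cannot be told apart, and its name is kept only as a label below. Comparisons between treated arrays, which do not use it, come first, and changes measured from it are given from the p53-/- 0 h array as well.

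Cell identity and array quality were checked once for all genes. Of 8 markers of basal mammary epithelium, 7 (KRT5, KRT14, KRT17, EGFR, CDH3, LAMB3 and ITGB4) were well above background on every array, and the log2 level of the summed signal of all 8 was 8.46 to 8.99 on treated p53+/+ arrays and 7.04 to 7.51 on treated p53-/- arrays, with 7.73 on the array labelled p53+/+ 0 h and 7.17 on the p53-/- 0 h array. Of 5 fibroblast markers, DCN was well above background on every array and COL3A1 on none. The summed level of the 5 was 2.11 to 2.39 on treated p53+/+ arrays, 5.71 to 6.07 on treated p53-/- arrays, 5.77 on the array labelled p53+/+ 0 h and 5.87 on the p53-/- 0 h array. The summed luminal markers (GATA3 and FOXA1 everywhere, PGR nowhere) were -0.06 to 0.22 against -1.29 to -0.58 on the same treated arrays, and -1.13 and -0.44 on the 0 h arrays labelled p53+/+ and p53-/-. The summed immune and endothelial markers (of which PTPRC, CD14 and CDH5 were well above background everywhere) were 0.98 to 1.80 against 2.12 to 2.70, with 1.72 and 1.59 on the 0 h arrays. By gene, the mean treated difference (log2, p53+/+ minus p53-/-) was -1.07 for CD14 and -3.54 for PECAM1. For PTPRC, CD3E and CDH5 it was -0.01, 0.05 and 0.22. These summed levels, though not every marker in them, differed between the treated genotypes without overlap, which did not extend to the 0 h arrays. Their part in the differences below was not tested. All arrays lay on 1 slide with each genotype in its own column, so slide position cannot be told apart from genotype. The 75th percentile was 661 to 818 on treated p53+/+ arrays and 1118 to 1199 on treated p53-/- arrays, so at each time scaling raised p53+/+ relative to p53-/- values by the same amount for every gene. Without scaling the median gene differed by -0.37, -0.52 and -0.76 (log2, p53+/+ minus p53-/-) at 12, 24 and 48 h. On the p53+/+ 48 h array 0 of 10 synthetic spike-in probes were well above background, against 6 of 10 on each other array. This limit holds for every gene read on that array and for means that include it, and its effect was not tested.

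After ADR, SESN1, SESN2, TIGAR and GLS2 were far higher in p53+/+ than in p53-/- cells at every time, DDIT4 and PRKAB1 were 2.02- and 2.24-fold higher on average, SCO2 did not differ beyond its movement over time, and SESN3 was not well above background (the scanner software's own call) on any array. Of the 7 genes well above background on at least 1 array, 6 passed an adjusted p of 0.05 in limma as higher in treated p53+/+ cells and 0 as lower, where 10.6% of the 28947 probes tested were higher and 7.4% lower. Without the scaling between arrays 4 of the 7 passed, where 9393 of the probes passed and 14.5% of these were higher in p53+/+ cells. By size alone, 4 of the 7 were at least 2-fold higher in p53+/+ cells at all 3 times, against 6.75% of 15811 genes. Again 4 met this rule without scaling, against 3.40% of genes. The median difference of the 7 genes was 3.21 on the log2 scale and that of all genes tested 0.05.

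**Figure D1:**
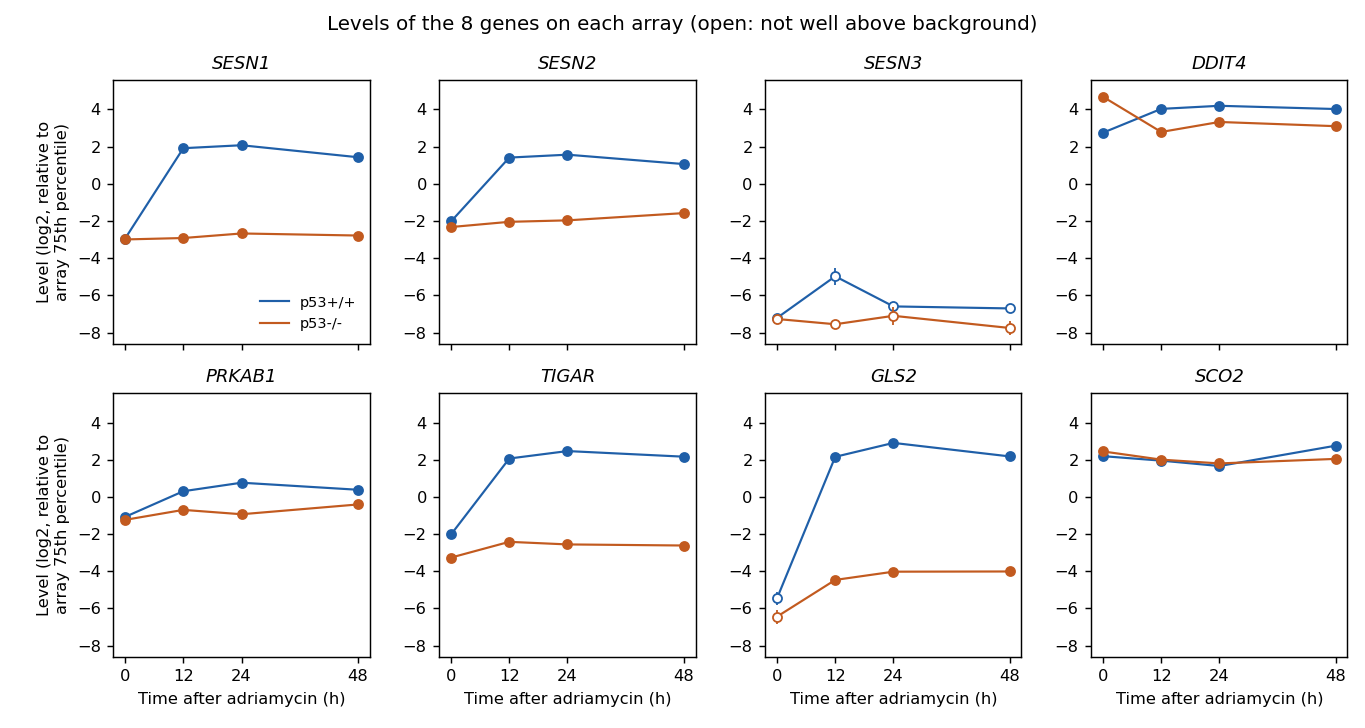
Log2 level relative to the 75th percentile of the array against time after ADR for the 8 genes, blue for arrays labelled p53+/+ and orange for p53-/-. Bars, mostly smaller than the points, are the technical SD estimated from probes printed in 10 spots, and open points were not well above background. SESN1, SESN2, TIGAR and GLS2 separate by genotype after ADR, SCO2 does not, and DDIT4 starts from 4.68 in p53-/- cells and from 2.75 on the array labelled p53+/+ 0 h.

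Start regions, where p53 and the other factors named here can act, are shown for the 4 genes with the largest differences and for DDIT4. DDIT4 was the 1 member that fell at least 2-fold at all 3 times after ADR in p53-/- cells. For SESN1 the window with a p53 half-site is the one printed. RefSeq (GRCh38.p14) lists 9 windows of 300 bases, from 250 before to 50 after a start, for 7 of the genes, 3 of them for SESN1. Both strands were searched for the 10-base p53 half-site consensus, for the ATF4 composite element TGATGNAA, the hypoxia response core ACGTG and the FOXO element GTAAACAN. Matches of different motifs did not overlap in these windows. The p53 half-site was found in 1 of the 9 windows, the SESN1 start at chr6:109008939-109009238, strand -, at base -49 from the start, and in 6.63% of all 35116 windows of this length. The 10 bases that follow it, ccacaagtca, differ from the consensus at 3 positions. ACGTG was found in the windows of TIGAR, at base -71, and DDIT4, at base -125, and in 21.4% of all windows, while TGATGNAA (3.62%) and GTAAACAN (3.41%) were found in none of the 9. A match is a string of letters and not a measured binding site, and the arrays do not tell which SESN1 start was used. Only exact matches inside these windows were searched, not introns or bases further upstream. A window without a match therefore does not mean that the gene lacks a p53 site. Matches are in capitals.

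SESN1 (chr6:109008939-109009238, strand -): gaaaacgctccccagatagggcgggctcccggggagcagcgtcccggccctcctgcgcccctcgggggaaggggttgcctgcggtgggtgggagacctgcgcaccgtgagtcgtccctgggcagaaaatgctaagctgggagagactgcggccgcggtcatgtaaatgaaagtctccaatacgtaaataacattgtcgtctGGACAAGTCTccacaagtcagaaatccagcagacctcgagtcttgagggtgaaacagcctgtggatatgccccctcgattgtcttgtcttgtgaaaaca
SESN2 (chr1:28259268-28259567, strand +): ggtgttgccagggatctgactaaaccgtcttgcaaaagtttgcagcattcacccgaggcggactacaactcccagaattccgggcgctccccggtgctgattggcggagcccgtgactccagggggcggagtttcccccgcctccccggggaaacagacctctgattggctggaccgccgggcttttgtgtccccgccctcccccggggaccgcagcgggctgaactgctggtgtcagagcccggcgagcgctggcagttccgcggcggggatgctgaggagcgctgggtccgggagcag
TIGAR (chr12:4320963-4321262, strand +): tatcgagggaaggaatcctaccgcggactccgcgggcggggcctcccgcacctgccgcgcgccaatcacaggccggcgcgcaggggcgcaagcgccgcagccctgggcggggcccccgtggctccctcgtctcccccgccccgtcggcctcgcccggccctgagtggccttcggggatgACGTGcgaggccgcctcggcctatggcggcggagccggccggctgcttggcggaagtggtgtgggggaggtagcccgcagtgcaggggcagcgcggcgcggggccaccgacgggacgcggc
GLS2 (chr12:56488112-56488411, strand -): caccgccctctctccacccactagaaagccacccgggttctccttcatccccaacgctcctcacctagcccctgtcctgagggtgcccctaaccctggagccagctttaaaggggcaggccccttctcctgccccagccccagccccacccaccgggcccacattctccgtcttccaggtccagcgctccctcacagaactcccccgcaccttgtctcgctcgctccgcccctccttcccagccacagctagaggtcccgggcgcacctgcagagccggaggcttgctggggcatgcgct
DDIT4 (chr10:72273674-72273973, strand +): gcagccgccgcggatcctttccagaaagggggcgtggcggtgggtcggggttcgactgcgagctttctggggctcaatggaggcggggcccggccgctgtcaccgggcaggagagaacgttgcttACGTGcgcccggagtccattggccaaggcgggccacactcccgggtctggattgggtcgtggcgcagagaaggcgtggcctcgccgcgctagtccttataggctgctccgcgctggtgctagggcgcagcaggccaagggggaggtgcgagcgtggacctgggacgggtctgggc

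SESN1 (probe for NM_014454, 1 spot) was well above background everywhere. Its level in treated p53+/+ cells was 1.92, 2.08 and 1.43 at 12, 24 and 48 h, or a processed signal of 3090, 3442 and 1784. In p53-/- cells the level was -2.91, -2.67 and -2.78, a signal of 149, 180 and 175. The groups did not overlap, and the highest p53-/- array lay far below the lowest p53+/+ array. The difference was 4.83, 4.74 and 4.21 at the 3 times (technical SD 0.12 to 0.13), with a mean of 4.60 or 24.2-fold (SE 0.23, adjusted p = 0.000241, limma). Both untreated arrays read low, -2.94 for the p53+/+ label and -2.99 for p53-/- cells. In p53-/- cells the level moved by 0.08, 0.32 and 0.21 after ADR, against a technical SD of 0.17 to 0.18. The largest of these shifts, at 24 h, was 1.25-fold.

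SESN2 (NM_031459, 1 spot) was likewise higher on every treated p53+/+ array than on any other array, with a smaller difference. Its level was 1.41, 1.57 and 1.06 in treated p53+/+ cells and -2.04, -1.96 and -1.57 in treated p53-/- cells. The groups did not overlap, although they were closest at 48 h, where p53+/+ cells were lowest and p53-/- cells highest. The difference was 3.46, 3.53 and 2.64 (technical SD 0.10 to 0.11), with a mean of 3.21 or 9.24-fold (SE 0.23, adjusted p = 0.000705, limma). The 0 h levels were -2.02 and -2.32. In p53-/- cells SESN2 lay 0.28, 0.36 and 0.75 above its 0 h level, the last of these 1.68-fold against a technical SD of 0.14 on the log2 scale.

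SESN3 (NM_144665, 1 spot) had a processed signal of 5.56 to 26.1 and was not well above background on any array. It was therefore left out of the main fits and has no fold. The alternative fit of treated arrays with no filter did include it, on background signal. There 7 members had an unadjusted p under 0.05 in limma, and 6, without SESN3, passed the adjusted threshold. The highest signal, 26.1, was on the p53+/+ 12 h array, where the lowest signal of a probe called well above background was 29.9. Of the 3 sestrins, only SESN1 and SESN2 were thus measured above background here.

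DDIT4 (NM_019058, 10 spots) behaved differently from the sestrins. Its level was 4.03, 4.20 and 4.02 in treated p53+/+ cells and 2.79, 3.33 and 3.10 in treated p53-/- cells, which did not overlap. The difference was 1.24, 0.87 and 0.92 (technical SD 0.02 to 0.03), with a mean of 1.01 or 2.02-fold (SE 0.20, adjusted p = 0.0200, limma). It did not pass without scaling (0.41, adjusted p = 0.203) or with any 1 treated time left out (adjusted p 0.0857 to 0.166), and the difference at 48 h without scaling was 0.06. The highest of the 8 arrays was the untreated p53-/- one, at 4.68 or a signal of 22600, against 2.75 and a signal of 6831 on the array labelled p53+/+ 0 h. From its own 0 h array DDIT4 fell in p53-/- cells by 1.89, 1.36 and 1.58 on the log2 scale, at least 2-fold at all 3 times, as did 2.04% of genes. The 10 spots of an array spanned 0.13 to 0.28, far less than these changes.

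PRKAB1 (NM_006253, 2 spots) had levels of 0.30, 0.76 and 0.38 in treated p53+/+ cells and -0.70, -0.93 and -0.41 in treated p53-/- cells. The groups did not overlap on this scale. The difference was 1.0, 1.70 and 0.79 (technical SD 0.07 to 0.08), with a mean of 1.16 or 2.24-fold (SE 0.23, adjusted p = 0.0179, limma). Without scaling the difference was 0.55 and 1.21 at 12 and 24 h and turned to -0.07 at 48 h, with an adjusted p of 0.136, and with 1 treated time left out the adjusted p was 0.0501 to 0.203. At 0 h the levels were -1.08 and -1.24. In p53-/- cells PRKAB1 lay above its 0 h level by 0.54, 0.30 and 0.83, that is, by 1.23- to 1.78-fold.

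TIGAR (NM_020375, 2 spots) had a level of 2.06, 2.46 and 2.16 in treated p53+/+ cells, or a signal of 3417, 4502 and 2959. In treated p53-/- cells the level was -2.42, -2.56 and -2.62, a signal of 209, 194 and 196. All treated p53+/+ arrays lay well above all p53-/- arrays. The difference was 4.48, 5.02 and 4.78 (technical SD 0.08 to 0.09), with a mean of 4.76 or 27.1-fold (SE 0.19, adjusted p = 0.000115, limma). At 0 h TIGAR was read at -2.02 on the untreated array with the p53+/+ label and at -3.26 in p53-/- cells, which is 2.37-fold. In p53-/- cells it lay above its 0 h level at all 3 times, by 1.80-, 1.63- and 1.57-fold, under the 2-fold rule.

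GLS2 (NM_013267, 2 spots) differed most between genotypes of the 7 genes tested. Its level in treated p53+/+ cells was 2.15, 2.90 and 2.18, a signal of 3640, 6103 and 2986, and in treated p53-/- cells -4.47, -4.02 and -4.01, a signal of 50.6, 70.2 and 74.3. The 6 treated arrays were all well above background and the genotypes were far apart. The difference was 6.62, 6.93 and 6.19 (technical SD 0.13 to 0.18), with a mean of 6.58 or 95.5-fold (SE 0.27, adjusted p = 0.000124, limma). On both 0 h arrays GLS2 was not well above background, with signals of 23.1 and 10.1. From the p53-/- 0 h array the treated p53-/- arrays were therefore at least 1.71-, 2.33- and 2.35-fold higher.

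SCO2 (NM_005138, 2 spots) was strongly detected on all arrays and did not follow genotype. Its level was 1.95, 1.66 and 2.75 in treated p53+/+ cells and 2.00, 1.80 and 2.04 in treated p53-/- cells, so the groups overlapped. The difference was -0.05, -0.14 and 0.71 (technical SD 0.06), with a mean of 0.17 (SE 0.31, adjusted p = 0.739, limma), and without scaling it was -0.51, -0.62 and -0.15. The 0 h levels were 2.19 and 2.44. The single high value, 2.75, was on the p53+/+ 48 h array, for which the spike-in limit given above holds for all genes alike. In the p53-/- cells SCO2 differed from its 0 h level by -0.44, -0.65 and -0.40 on the log2 scale, under the 2-fold rule.

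**Figure D2:**
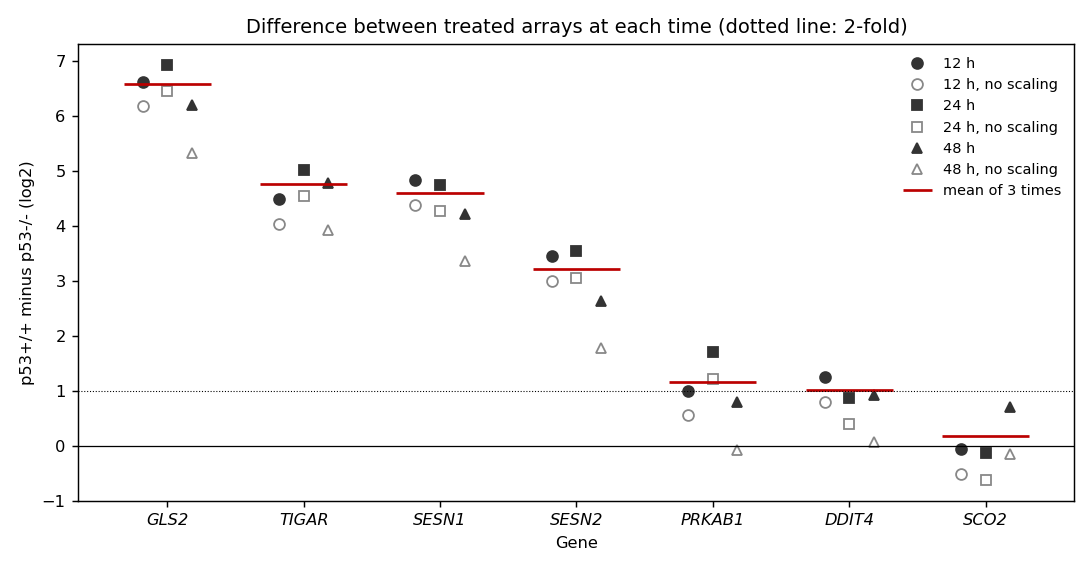
Difference between treated p53+/+ and treated p53-/- arrays (log2) at 12, 24 and 48 h for the 7 genes tested, filled with scaling to the 75th percentile and open without scaling, with a red bar at the scaled mean and a dotted line at 2-fold. The 4 genes on the left stay above the 2-fold line in all points, whereas PRKAB1 at 48 h and SCO2 at all 3 times are below 0 without scaling.

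Changes over time in p53+/+ cells could be measured only from the array labelled p53+/+ 0 h, which carries the doubt given above. From it, 6 of the 7 genes were raised at least 2-fold at all 3 times, all but SCO2, against 9.53% of genes. Measured from the p53-/- 0 h array instead, 5 of 7 were, without DDIT4, against 9.55% of genes. In p53-/- cells 1 gene, GLS2, met the rule, against 3.21% of genes, and at 12 h its rise could be bounded only at 1.71-fold. Without scaling, or under a 3-fold rule, 4 of the 7 were raised from the array labelled p53+/+ 0 h. The share of genes was 6.25% without scaling and 5.4% under the 3-fold rule. SESN1 was raised 29.1-, 32.5- and 20.8-fold from that array, and 30.0-, 33.5- and 21.4-fold from the p53-/- 0 h array. For SESN2 the folds were 10.8, 12.0 and 8.48, and 13.3, 14.8 and 10.46 from the p53-/- 0 h array. TIGAR depended more on the baseline, with 16.9-, 22.4- and 18.1-fold, and 40.2-, 53.02- and 43.0-fold from the p53-/- 0 h array. GLS2 was raised at least 161-, 270- and 163-fold, and at least 169-, 283- and 171-fold from the p53-/- 0 h array. PRKAB1 was raised 2.60-, 3.58- and 2.75-fold, and 2.91-, 4.0- and 3.07-fold from the p53-/- 0 h array. DDIT4 was 2.43-, 2.73- and 2.42-fold above the array labelled p53+/+ 0 h, but its treated p53+/+ levels differed by -0.65, -0.49 and -0.66 on the log2 scale from the p53-/- 0 h array, so that its direction depends on the baseline.

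The interaction of genotype and treatment, which asks whether the change from 0 h differed between genotypes, passed an adjusted p of 0.05 for 5 of the 7 genes, against 1.69% of probes. The estimates were 4.55 for SESN1 (adjusted p = 0.0142), 2.91 for SESN2 (adjusted p = 0.0377), 3.52 for TIGAR (adjusted p = 0.0164), 5.59 for GLS2 (adjusted p = 0.0134) and 2.94 for DDIT4 (adjusted p = 0.0287), all from limma with 4 residual degrees of freedom. For PRKAB1 it was 1.0 (adjusted p = 0.326) and for SCO2 0.43 (adjusted p = 0.774). For GLS2 the 0 h values near background enter the estimate, so it is not a measure of size. With the time point as a block GLS2 alone passed (adjusted p = 0.0497), and SESN1 (adjusted p = 0.0557), TIGAR (0.0582), DDIT4 (0.0683) and SESN2 (0.0999) did not. With any 1 treated time left out, a fit with fewer arrays, 0 of the 5 passed the adjusted threshold in limma and all 5 kept an unadjusted p under 0.05.

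Most genes of the wider AMPK and mTORC1 machinery did not pass the test, and neither did most of all genes tested. Of 46 genes in this list 45 were tested, of which 7 were higher in treated p53+/+ cells, 5 lower and 33 did not pass, with a median difference of 0.15 beside 0.05 for all genes (1829 higher, 1476 lower and 12506 not passed of 15811). PRKAB2, the other beta subunit of AMPK, was 1.44 higher (adjusted p = 0.00563) and PRKAG2, a gamma subunit, 1.54 higher (adjusted p = 0.0138). PRKAA2, a catalytic alpha subunit, was well above background on the 3 treated p53-/- arrays (mean level -4.34) and on none of the treated p53+/+ arrays, at least 1.23-fold lower there. Its adjusted p of 0.000665 is that of the measured means, -6.72 against -4.34, of which the first is background signal, and not of this bound. WDR59, a GATOR2 subunit, was 1.36 higher (adjusted p = 0.00681), and EIF4EBP1, the translation inhibitor that mTORC1 phosphorylates, differed by -1.59 (adjusted p = 0.0146, limma for each). Its level was 2.42 on average in treated p53+/+ cells, 4.02 in treated p53-/- cells, and 4.37 and 4.28 on the 0 h arrays. The other 3 that were lower, named after their values were seen, were WDR24 of GATOR2 (-0.88, adjusted p = 0.0234), RHEB, the GTPase that switches mTORC1 on (-0.87, adjusted p = 0.0489), and TBC1D7 of the TSC complex (-0.63, adjusted p = 0.0466, limma for each). The remaining higher genes, likewise named afterwards, included LAMTOR2 (1.495, adjusted p = 0.0116) and FNIP1 (1.25, adjusted p = 0.0418). The last were PRKAG3 (0.74, adjusted p = 0.0314) and PRKAG1 (0.65, adjusted p = 0.0416, limma for each). Without scaling, every mean difference between treated genotypes moves by -0.60 on the log2 scale. The called genes named from these lists keep their sign, whereas the medians of this list, of the enzymes, of the ATF4 and hypoxia lists and of all genes turn negative. Of the genes named by the 2-fold rule, PRKAB2, PRKAG2, WDR59, PFKFB2, PANK1 and PSAT1 then have a mean difference under 2-fold. Whether each named gene still passes without scaling is not given here.

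Most enzymes and assembly factors that act beside TIGAR, GLS2 and SCO2 did not pass either, as with all genes tested (12506 not passed of 15811). Of 23 genes 22 were tested, with 1 higher, 0 lower and 21 not passed and a median difference of 0.10. The 1 that passed was PFKFB2, an enzyme that makes and breaks down the same fructose-2,6-bisphosphate that TIGAR lowers, which was 1.54 higher in treated p53+/+ cells (adjusted p = 0.0144, limma).

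Of 15 other p53 targets in metabolism, all of them tested, 8 were higher in treated p53+/+ cells, 0 lower and 7 did not pass, with a median difference of 0.89. PRODH, the proline dehydrogenase, was at least 105-fold higher and well above background on 2 of the 3 treated p53-/- arrays. TP53INP1, a stress protein of p53 signalling and autophagy, was 4.62 higher (adjusted p = 0.000777). FDXR, the mitochondrial ferredoxin reductase, was 4.59 higher (adjusted p = 0.000761), TP53I3, a quinone oxidoreductase, 3.30 (adjusted p = 0.00115), and PANK1, a pantothenate kinase of coenzyme A synthesis, 1.57 (adjusted p = 0.0129, limma for each). All 20 general p53 targets in the list were higher, with a median of 2.71, among them SPATA18 (at least 183-fold, well above background on 1 of 3 treated p53-/- arrays), GDF15 (7.31 on the log2 scale), BTG2 (5.26), BBC3 (4.36) and RRM2B (3.70). The differences of SESN1, SESN2, TIGAR and GLS2 lay above this median, those of DDIT4 and PRKAB1 below it.

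Stress pathways that also control SESN2 and DDIT4 were listed as well. Of 11 genes of the ATF4 pathway 2 were higher and 0 lower, with a median of 0.22, and PSAT1, a serine synthesis enzyme, was 1.12 higher (adjusted p = 0.00828, limma). The other was the transcription factor ATF3, named after its value was seen (2.03, adjusted p = 0.0432, limma). Of 10 hypoxia response genes 2 were higher and 0 lower, with a median of 0.05, and EGLN3, a prolyl hydroxylase, was at least 3.37-fold higher and well above background on 1 of 3 treated p53-/- arrays. The other, likewise named afterwards, was NDRG1 (1.03, adjusted p = 0.0359, limma). DDIT4 fell in p53-/- cells after ADR by a mean of 1.61 on the log2 scale. The mean changes of the ATF4 list there went both ways, from -1.03 (ASNS) to 2.12 (ATF3), as did those of the hypoxia list, from -0.69 (PDK1) to 1.73 (ADM), and were not tested against that of DDIT4.

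**Figure D3:**
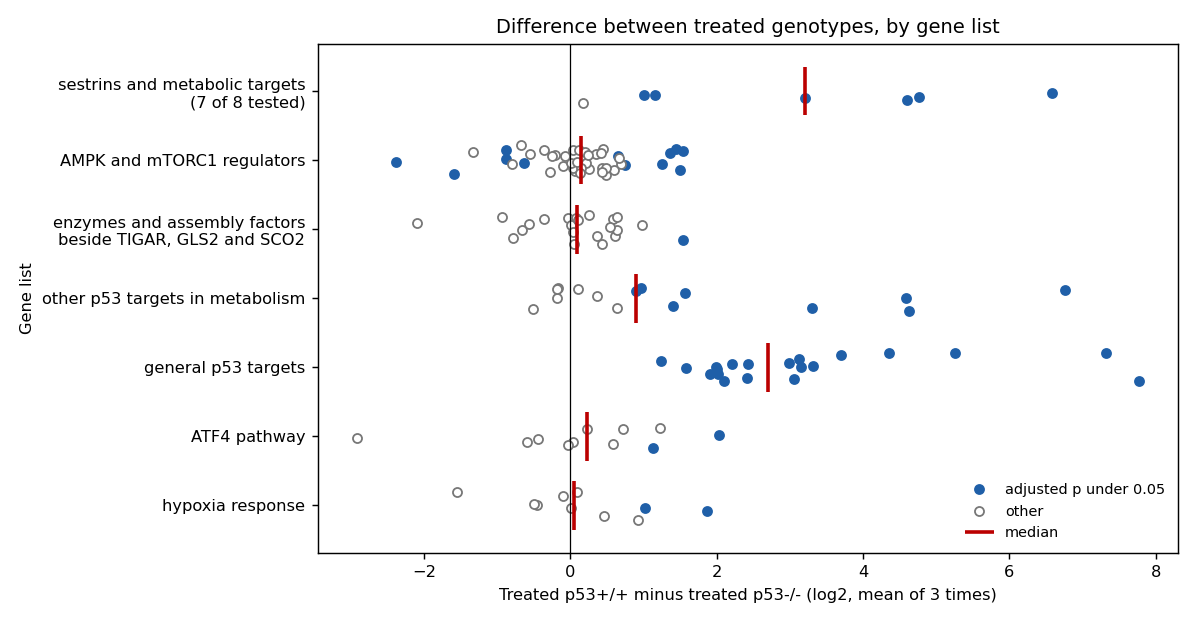
Mean difference between treated p53+/+ and treated p53-/- arrays (log2) for each gene tested, by gene list, filled where the adjusted p from limma was under 0.05, with a red bar at the median of the list. The medians were 3.21 for the sestrins and metabolic targets, 2.71 for general p53 targets, 0.89 for other p53 targets in metabolism and between 0.05 and 0.22 for the others.

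For the 6 members well above background on every array, which leaves out GLS2 and SESN3, the genes whose levels over the 8 arrays were most alike were taken from 6765 genes that were well above background on every array and ranged over at least 2-fold, by Pearson's r. They were ZNF630 (0.998), EGFLAM (0.997) and LCE1E (0.997) for SESN1, SDCBP2 (0.998), FAS (0.997) and TSTD1 (0.997) for SESN2, and PLK3 (0.998), TRUB1 (0.996) and PRDX6 (0.996) for TIGAR. For PRKAB1 they were DUSP14 (0.988), ZMAT5 (0.988) and HOXA9 (0.987). The likeness was lower for DDIT4, with TTBK2 (0.967), MDM4 (0.965) and RXRA (0.964), and for SCO2, with CCDC107 (0.960), PCDHA7 (0.959) and VWA7 (0.957). Among the members, SESN1, SESN2, TIGAR and GLS2 had r of 0.981 to 0.995 with each other. With these genes PRKAB1 had 0.938 to 0.972 and DDIT4 0.42 to 0.54, and SCO2 had -0.14 to 0.24 with the other 6. For GLS2 the 0 h values that enter r were not well above background. Since the treated p53+/+ arrays stand apart from the other 5 for any gene that follows p53, and the arrays share their scaling, these values describe the pattern over 8 arrays only.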

How the data were processed

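Total RNA of 8 MCF10A samples was hybridised to single-colour Agilent SurePrint G3 arrays. Per the file headers, the deposited values came from Feature Extraction 10.7.3.1 with a design on hg19. The processed signal is an intensity on a linear scale, background-corrected by that software before the authors deposited it. The deposited series table repeated them (62976 of 62976 on each array) and gave no alternative. A normalization between arrays is not given in the sources used here.

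Between 233 and 370 uneven or outlying spots per array were left out, and no spot was saturated. The log2 signal minus that of the array's 75th percentile was averaged over each probe's spots. Of 42405 probes, 64.2% matched 1 gene by accession (RefSeq, GRCh38.p14). A gene was read by its probe of highest mean. The 28947 probes (15811 genes) that the software called well above background on any array were fitted with limma 3.58.1 (R 4.3.3) with Benjamini-Hochberg adjustment, on genotype over the 6 treated arrays, and on genotype, treatment and their interaction over all 8. The fits were tested on simulated data. Some genes, 1 of them in a check of the labels, are not reported here. Technical SDs came from the 100 probes in 10 spots nearest in signal and cover differences between spots only. The number of arrays limits the precision. Bounds of the form "at least N-fold" used the lowest signal of a probe well above background on that array, or the probe's own if higher. The named genes are the members, CDKN1A, up to 5 genes per list with the largest difference that passed and was at least 2-fold at all 3 times, and 3 genes most like each member that was above background on every array. The members, lists and tests were chosen with earlier results of these data known. Alternatives were other scalings, none, normexp (offset 50, on median spot signals), filters, fold rules, probe summaries, a floor, a time block, another baseline and each treated time left out. Adding the p53-/- 0 h array and spot medians were chosen after seeing the data. Python 3.11.15 with pandas 2.3.3 and matplotlib 3.10.9 was used.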

Additional observations from a re-analysis of the deposited data

Results flagged for a closer look

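The genotype by treatment term in limma had an adjusted p under 0.05 for SESN1 (4.55), SESN2 (2.91), TIGAR (3.52), GLS2 (5.59) and DDIT4 (2.94), on the log2 scale. With the time point as a block, 1 of these 5 genes passed, and 0 passed with any 1 treated time left out (5 at an unadjusted p under 0.05 in limma). Each estimate uses the array labelled p53+/+ 0 h, for which treatment and sample cannot be told apart. Where both genotypes were measured from the p53-/- 0 h array, the interaction equals the difference between treated arrays.

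DDIT4 also moved in opposite directions, above the array labelled p53+/+ 0 h and below the p53-/- 0 h array at all 3 times, with a difference in mean change of 2.94. The 2 untreated arrays differed by -1.93 (log2, p53+/+ label minus p53-/-) for DDIT4, and 9.63% of tested genes differed at least 2-fold between them.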

How the results depend on the processing

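SESN1, SESN2, TIGAR and GLS2 passed in treated cells in 12 of 12 alternatives, with differences of 4.0 to 4.79, 2.61 to 3.49, 4.16 to 4.94 and 5.39 to 7.15 and adjusted p of at most 0.0449 (limma). The filters, the time block and the mean of all probes gave the main estimates unchanged for the members. In those alternatives only the adjusted p differed. DDIT4 passed in 7 of 12 (0.41 to 1.08) and PRKAB1 in 8 of 12 (0.57 to 1.35). With the p53-/- 0 h array added, DDIT4 was 0.61 (adjusted p = 0.366). SCO2 passed in 0 of 12 and turned to -0.43 without scaling, and ranged from -0.10 to 0.33 with 1 treated time left out.

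The number of probes that differed between treated genotypes was 5201, and 9393 without scaling, 9894 with normexp, 12536 with no filter, and 292 (without 24 h) to 2670 with 1 treated time left out (2670 without 12 h, 2571 without 48 h). The share of these higher in p53+/+ was 58.8%, and 48.3% with quantile normalization, 45.7% with median scaling, 14.5% without scaling and 73.3% with normexp. The number of members that passed was 6, and 4 without scaling or with any 1 time left out.

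The interaction passed for 488 probes, and for 1296 without scaling, 1251 with normexp, 60 with time as a block, 5201 with the p53-/- 0 h baseline, and 0 to 42 with 1 time left out, where 3063 to 5274 had an unadjusted p under 0.05 in limma. For the members it passed for 5, and for 3 without scaling, 1 with the block, and 0 with 1 time left out (5 unadjusted). It turned to -0.38 for SCO2 without scaling, and the mean p53+/+ change of DDIT4 turned from 1.33 to -0.60 with the p53-/- 0 h baseline. Members raised in p53-/- cells numbered 1, against 3.21% of genes. They numbered 2 under a 1.5-fold rule (7.98% of genes) or without scaling (7.10%), and 0 with normexp (1.04%). The mean p53-/- change of TIGAR was 0.73 with scaling and 1.12 without it. The causes of these changes were not tested. Leaving scaling out moves all genes by the same amount at each time, and some fits had fewer arrays. Dim signal limits GLS2 at 0 h and SESN3 on all arrays.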
